A study of Mus musculus with 11 samples.

Results

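The 7 genes described here control how liver cells store and move zinc. They are the metallothioneins Mt1 and Mt2, their transcriptional activator Mtf1, the zinc exporter Slc30a1 and its relative Slc30a10, and the importers Slc39a14 and Slc39a4. They were taken by name from the gene names of the array, which holds 27962 names in all, and all 7 were among the 16702 genes that passed the filter and were tested. Their expression was measured in normal mouse liver at embryonic day 14 (called E14.5, 3 arrays), embryonic day 18 (E18.5, 3 arrays), postnatal day 5 (P5, 2 arrays) and postnatal day 56 (P56, 3 arrays). Each array compared liver RNA labeled with Cy5 with a common reference labeled with Cy3, commercial RNA of normal adult mouse liver, and values below are log2(Cy5/Cy3), so that 0 is the level of the reference. No treatment is named for any stage and no dyes were swapped. The labels give liver as the source and hepatoblasts (E14.5), immature hepatocytes (E18.5) or hepatocytes (P5 and P56) as the cell type, while the methods speak of whole livers as well as isolated fetal cells. Which of these the embryonic arrays hold is not settled by the sources used here, and sex is not given in them. The methods name C57BL/6 embryos for the isolated fetal cells and give no strain for whole livers. Arrays are named by the replicate numbers of the labels, which for P5 are 2 and 3.

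Metallothioneins are small cysteine-rich proteins that bind zinc and copper, and their genes are switched on by zinc, by glucocorticoids and in the acute phase response. MTF1 is a zinc-sensing transcription factor that binds metal response elements in the promoters of Mt1, Mt2 and Slc30a1. Transporters of the SLC30 family carry zinc out of the cytosol and those of the SLC39 family carry it in. SLC39A14 also takes up manganese and non-transferrin-bound iron in hepatocytes, SLC30A10 exports manganese, and SLC39A4 is best known as the zinc importer of the intestine.

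Mt2 and Mt1 are neighbours on chromosome 8 with no other gene between them in the RefSeq table, and the starts of their probes lie 6640 bases apart (mm7, the genome build of the array files). Promoter windows of 5 of the 7 genes were taken from RefSeq (build GRCm38.p6, 250 bases before to 50 after the start of a transcript). They were searched on both strands for the core of the metal response element, written as TGCACNC or TGCGCNC. Mt2 held 4 matches in its window, Mt1 and Slc30a10 3 each (2 of those of Slc30a10 overlap), Slc30a1 2 and Mtf1 0. Of all 32851 windows of 300 bases in the table, 25.7% held at least 1 match and 1.97% held at least 3. A match is a run of letters and not a shown binding site. The promoters of Slc39a14 and Slc39a4 were not analysed here. The bases upstream of Mt1 and Mt2 are shown because these genes had the largest differences among the 7 and moved together, with the matches in capitals (chr8:94178839-94179088 for Mt1 and chr8:94172368-94172617 for Mt2, both on the plus strand).

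Mt1: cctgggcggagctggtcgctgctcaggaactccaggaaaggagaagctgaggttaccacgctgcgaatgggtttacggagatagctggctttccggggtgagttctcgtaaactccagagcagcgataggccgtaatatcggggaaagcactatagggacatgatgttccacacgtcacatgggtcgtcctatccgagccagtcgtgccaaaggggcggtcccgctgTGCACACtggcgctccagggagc

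Mt2: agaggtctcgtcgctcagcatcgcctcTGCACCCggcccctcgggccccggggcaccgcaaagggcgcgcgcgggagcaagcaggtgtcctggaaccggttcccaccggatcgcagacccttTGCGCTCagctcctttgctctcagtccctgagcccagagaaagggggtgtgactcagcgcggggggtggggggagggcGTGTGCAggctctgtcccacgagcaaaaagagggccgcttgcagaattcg

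The upstream match of Mt1 begins at position -23 from the RefSeq start and those of Mt2 at -223, -128 and -50. The other 2 matches of Mt1 lie just after that RefSeq start, and the proximal match of Slc30a1 begins at -43 (chr1:191906727-191906755, plus strand). They are shown with the bases around them for comparison. Each of the 5 genes had 1 window, so bases around any other start of transcription were not searched. Before and after refer to the RefSeq start alone.

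Mt1, first match after the start: ccagggagctcTGCACTCcgcccgaaaag
Mt1, second match after the start: cgcccgaaaagTGCGCTCggctctgccaa
Slc30a1, proximal match: acgggggttccGAGTGCAaagcaaagttt

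The 7 genes were read by 13 probes, 12 of which passed the filter on dim spots. For each gene the brightest probe that passed stood for the gene. The further probes of Mt1, Mtf1, Slc30a1, Slc30a10 and Slc39a14 did not follow it in every comparison. Mt2 and Slc39a4 had 1 probe each, so no other probe could be set beside it. The sequences of the main probes of Mt1, Mtf1 and Slc30a10 are given as examples, each with its mm7 position (chr8:92769155-92769214, chr4:124249624-124249683 and chr1:184990352-184990411).

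Mt1 probe: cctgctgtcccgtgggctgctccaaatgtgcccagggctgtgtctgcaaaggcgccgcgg
Mtf1 probe: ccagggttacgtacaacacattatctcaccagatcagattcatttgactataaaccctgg
Slc30a10 probe: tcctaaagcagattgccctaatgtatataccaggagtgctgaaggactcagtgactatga

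Across the 11 arrays, 16790 to 25718 of 43379 spots were well above background in Cy5, with the lowest number on P56 replicate 2. Replicates of a stage correlated across genes at 0.987 to 0.990 for E14.5, 0.968 to 0.985 for E18.5, 0.900 for P5 and 0.826 to 0.937 for P56. By the saturation flag of each spot, saturation touched the 7 genes once. The Mt2 probe was saturated in Cy5 on P5 replicate 2 (65535 scanner units), and no probe of the 7 genes was saturated in Cy3. Unflagged Mt2 signals came near this value on E14.5 replicates 2 and 3 (60710 and 59658). Whether this narrowed the differences of Mt2 among the 3 earlier stages was not tested. No fetal array shared a scan with a P56 array or a P5 array, so for fetal against postnatal comparisons scan and stage cannot be told apart. Markers of other cells moved with the stages. The mean log2 ratio of 7 erythroid markers ranged from 3.29 to 3.39 over the E14.5 arrays, from 3.43 to 3.69 over those of E18.5, from 2.78 to 3.18 over those of P5 and from -0.32 to 0.09 over those of P56. That of 6 hepatocyte markers was -3.86 to -3.70 at E14.5 and -0.79 to -0.19 on all later arrays. Fewer cells of a type and less RNA per cell cannot be told apart in these samples.

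**Figure D1:**
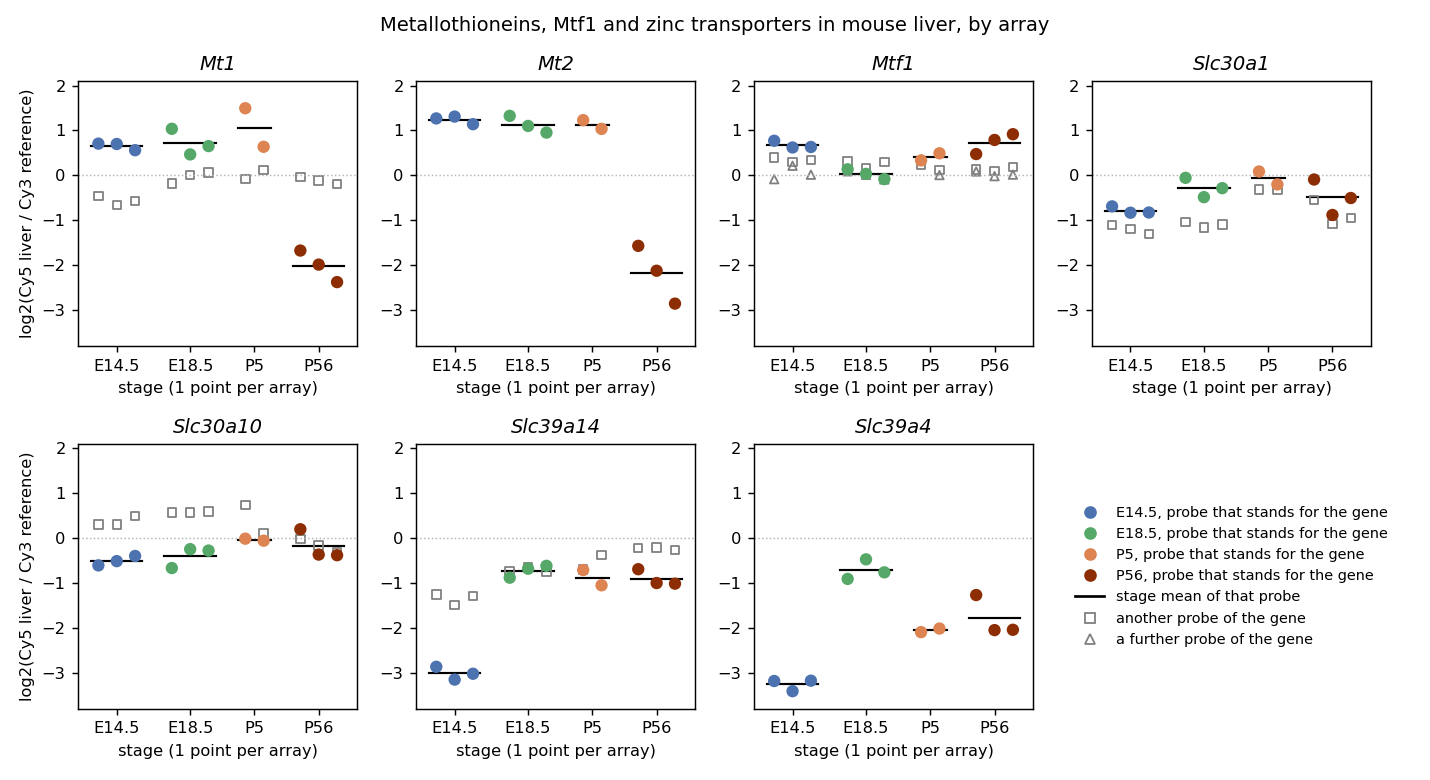
Each point is 1 array, placed by stage, with its log2(Cy5/Cy3) on the vertical axis. Filled points are the probe that stands for the gene, bars are its stage means, and open grey symbols are the gene's other probes. Mt1 and Mt2 lie between 0.47 and 1.49 until P5 and at or below -1.57 at P56, while Slc39a14 and Slc39a4 are lowest at E14.5.

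The metallothioneins were the genes of this group with the largest differences, and they were high through fetal and early postnatal life and low in the adult. The E14.5 arrays read Mt1 at 0.71, 0.70 and 0.56, those of E18.5 at 1.04, 0.47 and 0.65, those of P5 at 1.49 and 0.64, and those of P56 at -1.67, -1.99 and -2.38. In the same order Mt2 read 1.27, 1.31 and 1.14, then 1.33, 1.1 and 0.95, then 1.23 and 1.03, and at P56 -1.57, -2.12 and -2.85. Every array of the 3 earlier stages was above the adult reference for both genes and every P56 array was below it, with no overlap. The P56 mean was -2.01 ± 0.35 for Mt1 and -2.18 ± 0.64 for Mt2 (SD, n = 3). Both the P56 samples and the reference are adult liver, yet 0.802% and 0.545% of the genes tested had a P56 mean lower than those of Mt1 and Mt2. The same share was 1.19% for Slc39a4, 6.90% for Slc39a14 and 17.2% to 90.6% for Slc30a1, Slc30a10 and Mtf1.

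Between P5 and P56, 2 of the 7 genes changed, both downward, where 45.6% of all genes tested did (20.9% higher and 24.7% lower at P56). Mt1 was 8.44-fold lower at P56, a log2 change of -3.08 ± 0.25 (SE; limma adjusted p = 2.42e-06). Mt2 was 9.95-fold lower, a log2 change of -3.31 ± 0.27 (limma adjusted p = 2.36e-06), and with the saturated spot of P5 replicate 2 left out the log2 change was -3.29. Within the 1 scan that holds arrays of both stages, the P56 mean minus P5 replicate 3 was -2.65 for Mt1 and -3.22 for Mt2. By the methods' t-test the adjusted p of these comparisons was 0.0692 and 0.0727. The median log2 change of the 7 genes was -0.15, beside -0.02 over all genes. All 4 hepatoblast, all 7 erythroid and all 5 neutrophil markers fell over the same interval, with median log2 changes of -4.35, -3.10 and -4.86, as did all 5 endothelial markers (-0.78). The mean log2 ratio of the hepatoblast list was 4.58 to 4.61 at P5 and 0.12 to 0.53 at P56, and that of the neutrophil list 2.31 to 2.68 and -2.42 to -1.62. Their part in the metallothionein result was not tested.

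From E14.5 to P5 no difference in either metallothionein was detected with the main probes. E18.5 minus E14.5 was 0.06 for Mt1, with a 95% confidence interval of -0.43 to 0.56, and -0.11 for Mt2 (-0.65 to 0.42). P5 minus E18.5 was 0.35 for Mt1 (-0.21 to 0.90) and 0.01 for Mt2 (-0.59 to 0.60). Without P5 replicate 2, which read Mt1 at 1.49 against 0.64 on the other P5 array, the Mt1 value of that comparison was -0.08. Ordered by their means, Mt1 ran P5, E18.5, E14.5 and P56, and Mt2 ran E14.5, P5, E18.5 and P56. P5 and E18.5 change places for Mt2 when the saturated spot is left out (P5 minus E18.5 of -0.034). In each of these orders the last step alone was called. Over the 11 arrays Mt1 and Mt2 had a Pearson r of 0.981.

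The 2 channels behind these ratios did not behave alike for Mt2. Its Cy5 signal was 42091 to 65535 scanner units on the 8 arrays of E14.5, E18.5 and P5, of which the highest value is the saturated one, and 5018 to 14646 at P56. Scaled to the upper quartile of Cy5 on each array, this signal averaged 274, 191, 249 and 75.7 in order of age, a smaller drop than that of the ratio. Its Cy3 signal, which comes from the same reference RNA on every array, was 15502 to 25656 on those 8 arrays and 42126 to 50699 at P56. Scaled to the upper quartile of Cy3 on each array, the P56 mean of the Mt2 reference signal was 1.96 times that of the other arrays, and 0.0599% of the genes tested had a larger ratio. The median ratio of all genes was 1.00, and that of Mt1 was 1.14, which 12.9% of genes exceeded. P5 replicate 3, scanned with the P56 arrays, had a Cy3 signal of 21627, like the fetal arrays. With the Cy5 channel alone Mt2 was still lower at P56, by a log2 change of -2.51 against P5 (limma adjusted p = 7.09e-05) and -2.59 against E14.5. Mt1, whose brightest Cy5 signal was 25368 and whose Cy3 signal was 5826 to 9388 throughout, fell by 2.83 on the log2 scale from P5 to P56 in Cy5 alone. Why the Mt2 reference signal differed was not tested.

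**Figure D2:**
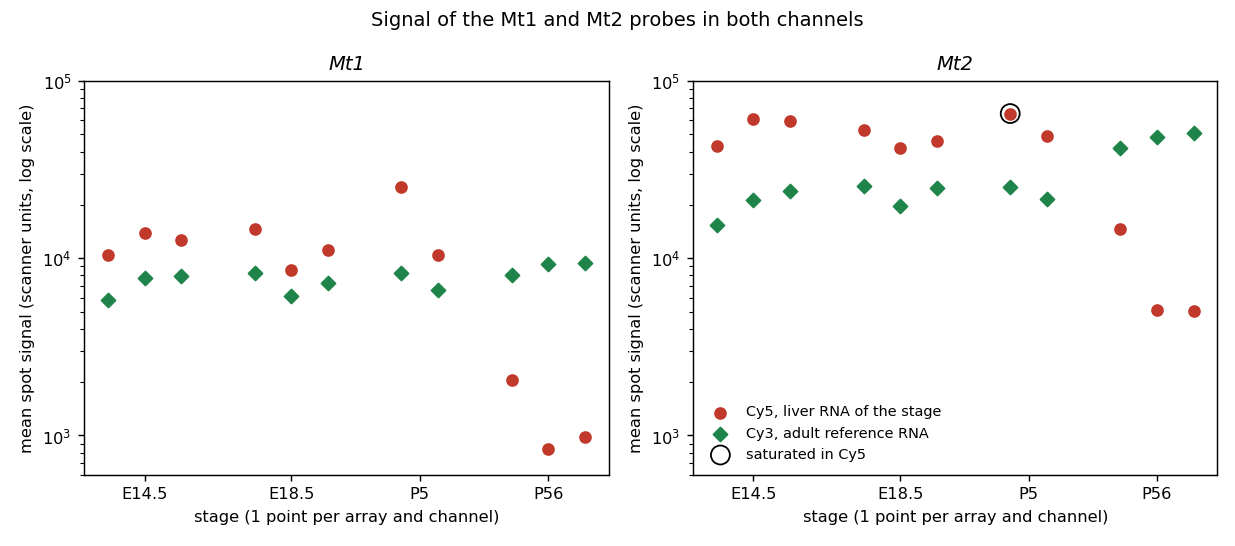
Mean spot signal of the Mt1 and Mt2 probes on each array in scanner units, on a log axis, by stage. Red circles are Cy5 (liver RNA of the stage), green diamonds are Cy3 (adult reference), and the ring marks the 1 saturated signal. Cy5 drops at P56 for both genes, and the Cy3 signal of Mt2 is 42126 to 50699 at P56 against at most 25656 earlier.

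A second probe named Mt1 begins 167 bases before the main probe on mm7 and was dim, with Cy5 signals of 50 to 178, and it was not well above background on P56 replicate 2. It read -0.46, -0.65 and -0.57 at E14.5 and -0.19 to 0.12 on all later arrays, and P56 minus P5 was -0.14 ± 0.11 (SE; limma adjusted p = 0.352 over all probes). P56 minus E18.5 was -0.08 ± 0.10 for it. From E14.5 to P56 this probe rose by 0.45 ± 0.10 (limma adjusted p = 0.00189 over all probes), where the main probe gave -2.67. It also rose from E14.5 by 0.53 ± 0.10 to E18.5 and by 0.59 ± 0.11 to P5 (limma adjusted p = 0.00118 over all probes for both). The main probe gave 0.06 and 0.41 there, and neither passed. Averaging both probes brought the Mt1 change from P5 to P56 to -1.61. Mt3, the brain metallothionein, and Mt4, that of squamous epithelia, passed the filter too. Mt3 rose by 0.29 on the log2 scale from E18.5 to P56 and Mt4 fell by 0.46 from E14.5 to P56 (limma adjusted p = 0.00733 and 0.0144). Centred on the median of each array in place of loess, the Mt3 change was -0.58.

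Mtf1, the zinc sensor, followed another course. Its main probe read 0.77, 0.62 and 0.63 on the E14.5 arrays, 0.14, 0.03 and -0.08 on those of E18.5, 0.33 and 0.49 on those of P5, and 0.47, 0.79 and 0.92 on those of P56. E18.5 arrays were below those of every other stage. Mtf1 fell from E14.5 to E18.5 by 0.65 ± 0.12 on the log2 scale (SE; limma adjusted p = 0.000892) and rose from E18.5 to P56 by 0.70 ± 0.12 (limma adjusted p = 0.00031). P56 and E14.5 differed by 0.05, with a 95% confidence interval of -0.21 to 0.31. The neighbours in the order of means (P56, E14.5, P5, E18.5) did not pass the test. The probe was dim, with Cy5 signals of 120 to 311. A second Mtf1 probe did not follow this course, with stage means of 0.35, 0.26, 0.18 and 0.14 in order of age, and gave -0.09 ± 0.09 (SE) for E18.5 against E14.5. For P56 against E18.5 this probe gave -0.12 ± 0.09. Against E14.5 it passed as lower at P56, by -0.21 ± 0.09 (limma adjusted p = 0.0466 over all probes). In the authors' table, which averages probes, E18.5 minus E14.5 was -0.39 and P56 minus E18.5 was 0.24, and neither passed (limma adjusted p = 0.319 and 0.505). Under median centring, which moved the median of all genes to -0.42, -0.33 and -0.47 in P56 against E18.5, E14.5 and P5, Mtf1 was -0.075, -0.68 and -0.44, and the last 2 values passed as lower (adjusted p = 8.81e-05 and 0.00598). Without P56 replicate 1, Mtf1 also passed from E18.5 to P5 (0.38, adjusted p = 0.0324) and from P5 to P56 (0.44, adjusted p = 0.0107).

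Slc39a14, the hepatocyte importer of zinc, manganese and iron, was lowest at E14.5. It read -2.87, -3.15 and -3.02 on the E14.5 arrays, -0.88, -0.68 and -0.62 on those of E18.5, -0.71 and -1.05 on those of P5, and -0.69, -1.0 and -1.01 on those of P56. The E14.5 arrays stood apart from all others. In the same order Slc39a4, the other importer, read -3.18, -3.41 and -3.17, then -0.91, -0.47 and -0.76, then -2.09 and -2.01, and at P56 -1.27, -2.05 and -2.04. Its E18.5 arrays were above those of every other stage. The 1 probe of Slc39a4 had signals of 1328 to 8356 in Cy5 and 11408 to 16526 in Cy3, the adult reference.

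Between E14.5 and E18.5, 4 of the 7 genes changed, where 47.3% of all genes tested did. The genes that rose were Slc39a14, Slc39a4 and Slc30a1 (24.6% of all genes were higher at E18.5), and the gene that fell was Mtf1 (22.8% lower). Slc39a14 rose 4.87-fold, a log2 change of 2.28 ± 0.13 (SE; limma adjusted p = 7.79e-08). Slc39a4 rose 5.81-fold, a log2 change of 2.54 ± 0.19 (limma adjusted p = 7.29e-07). Within the scan that holds E14.5 and 1 E18.5 array, the differences were 2.13 and 2.35. The second Slc39a14 probe, with Cy5 signals of 55 to 137, rose by 0.63 ± 0.10, and unlike the main probe it was higher again at P56 than at E18.5, by 0.48 ± 0.10 (limma adjusted p = 0.00162 over all probes) with no overlap of arrays. With scaling between arrays after loess the Slc39a4 call was lost (adjusted p = 0.15, log2 change 1.95). The median log2 change of the 7 genes was 0.11, beside -0.01 over all genes. All 6 hepatocyte markers rose over the same interval, with a median log2 change of 2.96, as did all 5 neutrophil and all 6 macrophage markers (3.22 and 1.45). Their part in the rise of the importers was not tested.

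After E18.5 the importers parted. From E18.5 to P5, 1 of the 7 genes changed, beside 13.7% of all genes (7.32% higher and 6.40% lower at P5). This was Slc39a4, which fell 2.53-fold, a log2 change of -1.34 ± 0.21 (limma adjusted p = 0.00205). The call was lost under median centring, scaling between arrays, the authors' table and the methods' t-test (adjusted p of 0.0715 to 0.125), with log2 changes of -1.09 to -3.13. Slc39a14 differed by -0.15 between these stages (95% confidence interval -0.47 to 0.17) and by -0.02 between P5 and P56 (-0.34 to 0.30). Under median centring it was lower at P56 than at P5 and E18.5, by log2 changes of -0.87 and -0.93 (adjusted p = 0.00718 and 0.00201). Ordered by mean, Slc39a14 ran E18.5, P5, P56 and E14.5 with the last step alone called, and Slc39a4 ran E18.5, P56, P5 and E14.5 with P56 and P5 not told apart (0.27, 95% confidence interval -0.20 to 0.74).

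Against E18.5, 4 of the 7 genes had changed at P56, where 64.8% of all genes had (31.2% higher and 33.6% lower). Mtf1 was higher, and Mt1, Mt2 and Slc39a4 were lower, with log2 changes of -2.73, -3.31 and -1.07. Against E14.5, 4 of the 7 had changed at P56, where 70.9% of all genes had (36.1% higher and 34.8% lower). Slc39a14 and Slc39a4 were higher at P56 by 2.11 and 1.47 on the log2 scale, and Mt1 and Mt2 were lower, at -2.67 and -3.42. The median log2 change of the 7 genes was -0.22 and 0.29 in these comparisons, beside -0.01 and 0.04 over all genes. With scaling between arrays the calls of Slc39a14 and Slc39a4 against E14.5 were lost (log2 changes of 1.30 and 0.45, adjusted p = 0.0522 and 0.683), as was that of Slc39a4 against E18.5 (-1.50, adjusted p = 0.17). These comparisons share the P56 arrays and are not independent of each other.

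**Figure D3:**
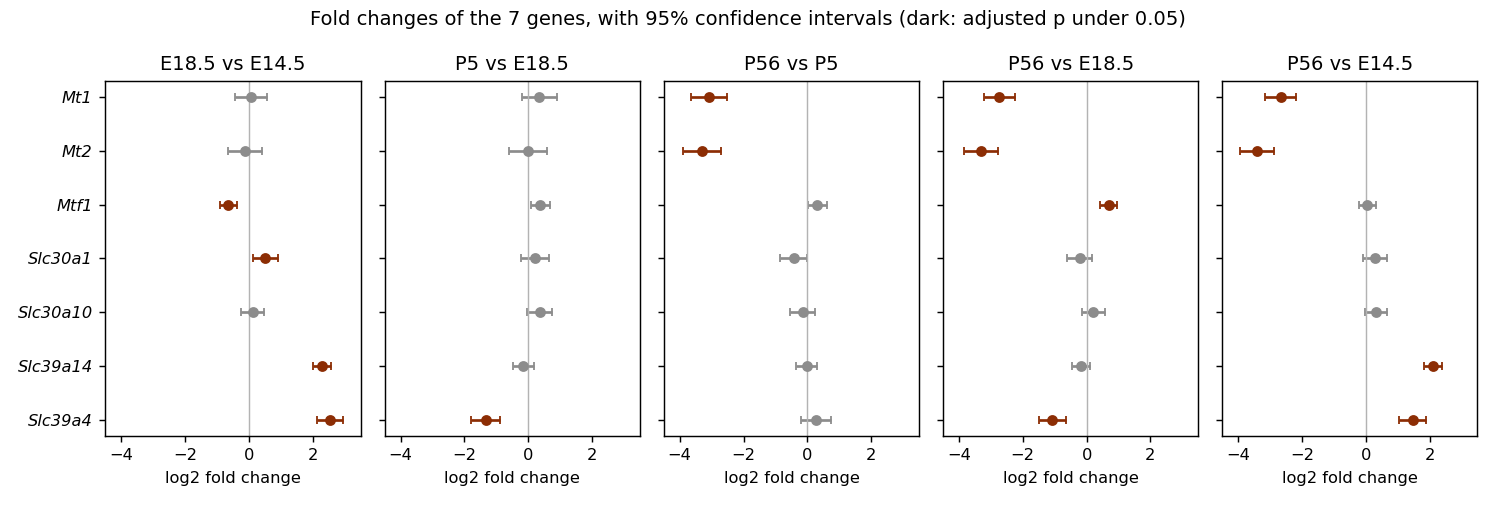
Log2 fold changes of the 7 genes in the 5 comparisons of stages, with 95% confidence intervals from the limma fit. Dark points passed an adjusted p of 0.05 and grey points did not. The metallothioneins are dark in the 3 comparisons with P56, and the importers Slc39a14 and Slc39a4 are furthest to the right in E18.5 against E14.5.

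By their main probes Slc30a1 and Slc30a10, the exporters, passed in 1 and 0 of the 5 main comparisons. Their second probes passed in others, as given below. In Cy5 these were similar in signal, at 87 to 841 against 92 to 922 for Slc30a1 and 49 to 336 against 64 to 326 for Slc30a10. Slc30a1, which carries zinc out across the plasma membrane, read -0.69, -0.83 and -0.83 on the E14.5 arrays, -0.06, -0.48 and -0.28 on those of E18.5, 0.09 and -0.20 on those of P5, and -0.09, -0.88 and -0.50 on those of P56. The E14.5 arrays lay below those of E18.5 and P5, and the P56 arrays spread from below all E14.5 arrays to near the highest E18.5 array. From E14.5 to E18.5 Slc30a1 rose 1.42-fold (log2 change 0.51 ± 0.18, SE; limma adjusted p = 0.0347), and this call was lost in 13 of 32 alternatives, including the leaving out of any single E14.5 array and of E18.5 replicates 1 and 3. P5 was above E14.5 by 0.72 ± 0.20 (limma adjusted p = 0.0101), a comparison in which 49.0% of all genes passed. The second Slc30a1 probe gave 0.11 ± 0.13 for E18.5 against E14.5 and fell from P5 to P56 by 0.55 ± 0.14 (limma adjusted p = 0.00836 over all probes). The main probe gave -0.43 ± 0.20 there (adjusted p = 0.0959). It passed with P56 replicate 1 left out (-0.63, adjusted p = 0.00982) and with the replicate number as a block (-0.55, adjusted p = 0.0236). P56 against E18.5 passed without P56 replicate 1 (-0.42, adjusted p = 0.0334) and P56 against E14.5 without P56 replicate 2 (0.48, adjusted p = 0.0184). The second probe also rose from E18.5 to P5, by 0.78 ± 0.14 (limma adjusted p = 0.00445 over all probes), where the main probe gave 0.22 ± 0.20. At P56 the second probe was above E14.5 by 0.34 ± 0.13 (limma adjusted p = 0.0294 over all probes), where the main probe gave 0.29 ± 0.18.

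Slc30a10, the manganese exporter, read -0.61, -0.51 and -0.40 on the E14.5 arrays, -0.67, -0.25 and -0.28 on those of E18.5, -0.01 and -0.06 on those of P5, and 0.20, -0.37 and -0.38 on those of P56. The P5 arrays lay above all fetal arrays and within the P56 range. P5 was above E14.5 by 0.47 ± 0.18 for the main probe (limma adjusted p = 0.0466). The second Slc30a10 probe gave 0.06 ± 0.16 there (limma adjusted p = 0.807 over all probes). It read 0.30, 0.30 and 0.50, then 0.57, 0.57 and 0.60, then 0.74 and 0.10, and at P56 -0.02, -0.17 and -0.31. That probe was not well above background on P56 replicate 2. P56 minus E18.5 was -0.74 ± 0.14 for it (limma adjusted p = 0.000769 over all probes), where the main probe gave 0.21 with a 95% confidence interval of -0.14 to 0.56. P56 minus P5 and P56 minus E14.5 were -0.59 ± 0.16 and -0.53 ± 0.14 for the second probe (limma adjusted p = 0.0119 and 0.006 over all probes). The main probe gave -0.15 and 0.32 there, and neither passed. Both probes carry the same transcript accession and lie apart on chromosome 1 (the second at chr1:184993807-184993866 on mm7). Both probes gave positive values for E18.5 minus E14.5 (0.11 and 0.21) and negative ones for P56 minus P5 (-0.15 and -0.59), and opposite signs in the other 3 main comparisons. Under median centring the main probe gave -0.53 for P56 minus E18.5 (adjusted p = 0.0409).

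Among the other members of the transporter families, 5 of 8 Slc30a genes and 11 of 12 Slc39a genes passed the filter. Of these 16 genes 11 (68.8%, beside 70.9% of all genes) changed between E14.5 and P56, 5 upward and 6 downward, with a median log2 change of -0.11. Slc39a8, an importer of zinc, manganese and cadmium, went opposite to Slc39a14. Its stage means in order of age were 2.15 ± 0.13, 0.93 ± 0.15, 0.86 ± 0.15 and 0.56 ± 0.18 (SD, n = 3, 3, 2 and 3), and it fell by 1.22 from E14.5 to E18.5 (limma adjusted p = 8.22e-06). Slc39a6 also fell, by 1.12 from E14.5 to P56, and Slc39a7, Slc39a10 and Slc39a3 fell by 0.40, 0.42 and 0.36. Slc39a1 and Slc39a11 rose by 1.06 and 0.94 over the same span, and Slc39a2 and Slc39a9 by 0.42 and 0.35. Slc39a5 was highest at E18.5, with a mean of 1.54 ± 0.27 (SD, n = 3), 0.96 above E14.5 and 1.42 above P56 on the log2 scale (limma adjusted p = 0.00426 and 0.000172), while its P5 arrays read 0.21 and 1.30. In the Slc30a family, Slc30a4 rose by 0.69 and Slc30a5, which loads zinc into the secretory pathway, fell by 0.33 from E14.5 to P56. Under median centring the Slc39a9 change was -0.42. In E18.5 against E14.5, 8 of the 16 passed (4 in each direction), beside 47.3% of all genes. In P5 against E18.5 it was 2 (13.7% of all genes), in P56 against P5 also 2 (45.6%), and in P56 against E18.5 it was 7, with 2 higher and 5 lower (64.8%).

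**Figure D4:**
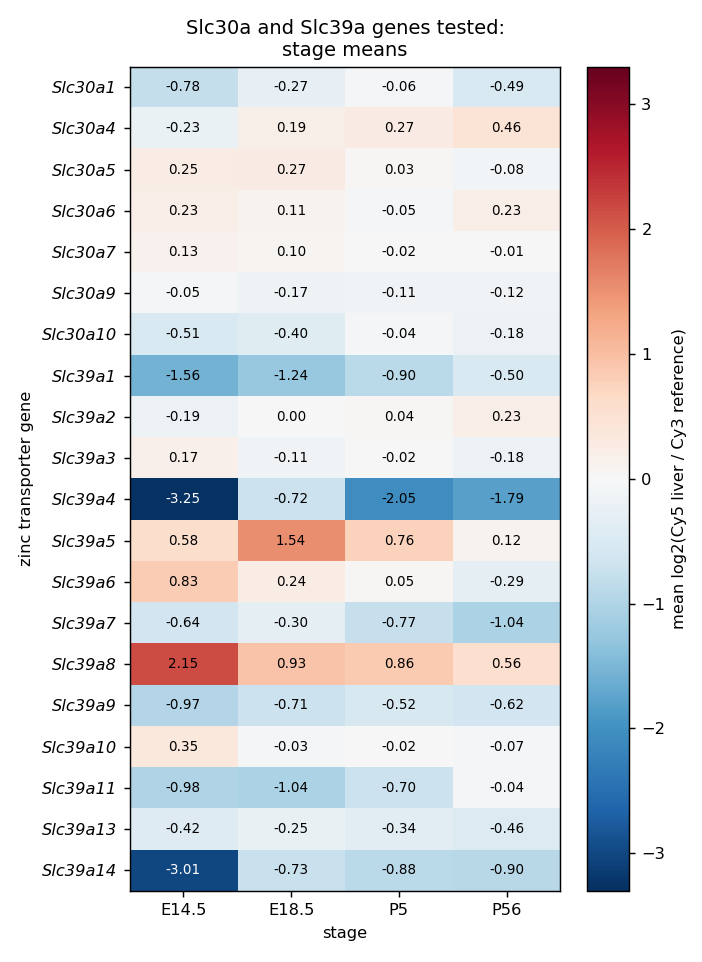
Stage means of log2(Cy5/Cy3) for the 20 Slc30a and Slc39a genes tested, 1 row per gene and 1 column per stage, in colour and as printed values. Slc39a4 and Slc39a14 are lowest at E14.5 (-3.25 and -3.01), where Slc39a8 is highest (2.15).

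Of 5 further genes reported as MTF1 targets, 4 changed between E14.5 and E18.5 (2 in each direction, beside 47.3% of all genes) and 4 between P5 and P56 (1 higher and 3 lower, beside 45.6%). Ndrg1, a stress-responsive gene, had stage means of 0.36, 4.05, 1.07 and -0.75 in order of age. It rose by 3.70 ± 0.21 from E14.5 to E18.5 and fell by 2.99 ± 0.24 to P5 and by 1.82 ± 0.24 from there to P56 (SE; limma adjusted p = 8.19e-08, 1.82e-05 and 8.89e-05). Slc40a1, the iron exporter ferroportin, rose by 2.00 to E18.5 and fell by 0.97 from P5 to P56. Csrp1 fell by 0.56 to E18.5 and by 1.33 from P5 to P56, and Sepw1, a selenoprotein, fell by 0.74 and then rose by 0.93. The list had a median log2 change of -0.97 from P5 to P56, beside -0.02 over all genes.

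The genes whose profile over the 11 arrays was most like that of Mt2 were Vim, Papd4, Tspan33, Eraf and Sdcbp (Pearson r of 0.992, 0.990, 0.986, 0.985 and 0.984). Those most like Mt1 were Xpo7, Smap1, Otud5, Cdkn3 and Mt2 itself (0.981 to 0.983). Those most like Slc39a14 were Paqr9, ENSMUST00000087244, Gc, Ceacam2 and 5730403B10Rik, with r of 0.994 to 0.996, and those most like Slc30a10 were Fbxw4, Cox15, Eps8l3, Clu and Serinc1, with r of 0.859 to 0.882. The comparison ran over the 16439 genes with a value on every array, which all share the same reference and stage structure. Slc39a14 and Slc39a4 had a Pearson r of 0.874.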

How the data were processed

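Liver RNA of 4 stages was measured on 11 two-colour Agilent arrays. The authors deposited, per the file headers, spot intensity in Cy5 and Cy3 as read by Feature Extraction 9.5.1.1, with local background, gene names and probe positions. A second deposited table gives log2 ratios that the authors lowess-normalized and averaged over the probes of a gene (28050 genes), and served as an alternative only.

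Intensities were corrected by normexp (offset 50) and normalized by loess within arrays. Control and outlier spots were left out and spots of a probe averaged. Probes were required to be well above background in Cy5 in every replicate of some stage and to miss at most 1 value per stage. The brightest kept probe stood for a gene. limma 3.58.1 (R 4.3.3) was fitted over all 11 arrays with Benjamini-Hochberg adjustment over 16702 genes and a threshold of 0.05. Recovery was simulated with the spread of these arrays over 16439 genes, of which 50 were changed at each size. Fewer genes were changed there than were called in the data. A log2 change of 0.5 was recovered in 30% of the changed genes for E18.5 against E14.5 and 26% for P56 against P5. For a change of 1 it was 88% and 74%, and for one of 2 it was 100% and 98%.

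The 7 genes and all gene lists were chosen with earlier results of these data known. The comparison of P5 with E14.5 was added later and was not run through the alternatives. Besides the 7 genes, the text names up to 4 genes of each list that passed in at least 1 comparison, by size of change, every Slc30a or Slc39a gene that passed in P56 against E14.5, and the 5 genes most like 4 of the members. The files use mm7 coordinates, and promoters are from RefSeq on GRCm38.p6. The number of arrays limits the precision, and the labels call the replicates biological. Each array's column of the authors' table correlated with the ratios used here at 0.792 to 0.919 across genes.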

Additional observations from a re-analysis of the deposited data

How the results depend on the processing

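The fall of Mt1 and Mt2 to P56 kept its direction in every alternative that could be fitted (32 for P56 against P5), and both genes passed in each but the methods' t-test after adjustment for P56 against P5. No alternative used the dim second Mt1 probe by itself, which rose from E14.5 to P56 by 0.45. The rise of Slc39a14 from E14.5 to E18.5 passed in all 32. Beside the main counts of 4, 1, 2, 4 and 4 genes changed (E18.5 against E14.5, P5 against E18.5, P56 against P5, P56 against E18.5 and P56 against E14.5), leaving out 1 array gave 3 to 4, 1 to 2, 2 to 4, 4 to 5 and 4 to 5. The higher counts of P5 against E18.5 and P56 against P5 came without P56 replicate 1. In E18.5 against E14.5 the count was 1 with scaling between arrays, 2 in the authors' table and 2 when a fold change of at least 2 was tested. In P5 against E18.5 it was 2 without background correction and by the methods' t-test before adjustment, and 0 under median centring, scaling between arrays, the authors' table, the adjusted t-test and the test of at least 2-fold. In P56 against P5 it was 6 under median centring and 0 by the adjusted t-test. It was 2 in P56 against E18.5 with at least 2-fold tested, and 2 in P56 against E14.5 with scaling between arrays. Median centring gave 3 in E18.5 against E14.5, 6 in P56 against E18.5 (all lower) and 5 in P56 against E14.5. The causes were not tested.

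Median centring moved the median log2 change of all genes from -0.02 to -0.47, from -0.01 to -0.42 and from 0.04 to -0.33 in P56 against P5, E18.5 and E14.5. The share of the genes called that were higher at P56 went from 45.7% to 6.84%, from 48.1% to 14.9% and from 51.0% to 22.9%. Values that had not passed became calls in the other direction for Mtf1 in P56 against P5 (-0.44) and E14.5 (-0.68) and for Slc30a10 in P56 against E18.5 (-0.53). It turned the called values of Mtf1 (-0.075), Mt3 (-0.58), Slc39a1 (-0.0074) and Sgk (-0.27) in P56 against E18.5, Slc39a1 (-0.43) and Slc39a11 (-0.19) in P56 against P5, and Mt3 (-0.59) and Slc39a9 (-0.42) in P56 against E14.5. Other turned values were Slc39a11 (-0.37) in P5 against E18.5 with scaling between arrays, Slc30a5 (0.037) in P56 against E18.5 with Cy5 alone, and, in E18.5 against E14.5, Slc39a1 (-0.0098) in the authors' table and Orm1 (-0.11) with outlier spots kept. Over all genes, the number called ran from 834 to 9428 (main 7908), 60 to 3765 (2292), 298 to 9515 (7615), 1832 to 11436 (10816) and 3067 to 12454 (11838) in the order above, the lowest with at least 2-fold tested except P56 against P5 (adjusted t-test).

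Deviations from the stage mean correlated at -0.30 to 0.19 for arrays of the same replicate number in different stages (15 pairs). For arrays of different numbers they correlated at -0.46 to 0.46 (30 pairs). With 2 or 3 arrays per stage the deviations within a stage are tied to each other. These values therefore cannot show whether arrays of the same number share more than the number. With the replicate block 4, 1, 3, 4 and 4 of the 7 genes changed, and the added call was Slc30a1 in P56 against P5 (-0.55, limma adjusted p = 0.0236). Scan as a fixed block could be fitted for E18.5 against E14.5 and P56 against P5 alone, with 4 and 2 genes changed.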

Other observations

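Copper, which metallothioneins also bind, is handled by 9 further genes that were tested. Of these 6 rose and 1 fell between E14.5 and E18.5 (24.6% and 22.8% of all genes did), with a median log2 change of 0.91 beside -0.01 over all genes. Cp, the plasma copper oxidase ceruloplasmin, rose by 3.02 ± 0.28 on the log2 scale and fell by 1.84 ± 0.31 from P5 to P56. Slc31a1, the copper importer, rose by 1.15 ± 0.10 and then by 1.22 ± 0.11 over the same intervals, and Ccs, the copper chaperone of superoxide dismutase, by 1.85 ± 0.09 and 0.65 ± 0.10. Atp7a, a copper-exporting ATPase, rose by 1.48 ± 0.14 to E18.5 and fell by 1.26 ± 0.15 to P5 and by a further 1.17 ± 0.15 to P56 (all SE, limma adjusted p of at most 0.000522).

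Acute phase and glucocorticoid-induced genes were also listed, and their relation to the metallothioneins was not tested. From P5 to P56, 4 of 10 acute phase genes rose and 2 fell, and 2 of 7 glucocorticoid-induced genes rose and 3 fell, beside 20.9% of all genes higher and 24.7% lower. Orm1, Hamp1 and Orm2 rose by 2.73, 3.11 and 1.88, and Tsc22d3 and Tat by 1.47 and 0.76. Pck1 and Sgk fell by 1.00 and 0.79. The acute phase genes that fell were Hp, by 0.69, and Lcn2, by 0.43, which are named here because there were only 2 and were chosen after their values were seen. From E14.5 to E18.5, 8 of 10 acute phase genes rose, among them Fgb by 3.75, and 6 of 7 glucocorticoid-induced genes did, beside 24.6% of all genes.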
